A study of Rattus norvegicus with 24 samples.

Results

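The genes described here are named as proteins of the cytosolic ribosome. They were taken as the probe sets whose only platform symbol was Rpl or Rps followed by a digit, or Rplp, leaving out the S6 kinases, pseudogenes and names ending in "l". The rule found 45 genes on 50 probe sets, among 14218 genes with a single symbol, and each gene was read at its probe set of highest mean. Of these genes, 32 are named for the large subunit and 13 for the small subunit. By name, 3 of the large-subunit genes are paralogues of a core protein, Rpl7l1, Rpl26l1 and Rpl39l1. A further 30 probe sets carried several ribosomal protein symbols and name no single gene.

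Male Fisher 344 rats aged 11 to 12 weeks received D-serine once at 5, 20, 50, 200 or 500 mg/kg, or vehicle (0 mg/kg), and were killed 96 h later. D-serine is the mirror-image form of serine that acts as a co-agonist at the glycine site of NMDA receptors. Each of the 6 groups held 4 rats, with 1 Affymetrix array per rat made from a forebrain piece of about 30 mg. The samples are separate animals, so the spread between arrays is biological and technical together, and 4 arrays per group limit the precision.

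A cytosolic ribosome joins a small subunit, which reads the messenger RNA, to a large subunit, which forms the peptide bonds. Their proteins are made in matched amounts, and most of their messages begin with a C followed by a run of pyrimidines, the 5' terminal oligopyrimidine (TOP) tract, through which mTOR signalling sets their translation. In neurons part of this synthesis takes place near synapses, and because the messages are abundant and steady in many tissues, several of them serve as reference genes in PCR.

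The stretches around the annotated transcript start are shown for the members with an adjusted p under 0.09 in at least 1 of the comparisons below. They show which of these genes hold a run of pyrimidines near that start. RefSeq promoter entries of the rat assembly GRCr8 were found for 38 of the 45 genes. Each line gives 15 bases before the start and 15 bases from it onward, 5' to 3' on the gene's strand, with a C followed by at least 5 pyrimidines in capitals.
Rpl6 (chr12:41011676-41011705, minus strand): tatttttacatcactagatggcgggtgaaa
Rpl3 (chr7:113507976-113508005, minus strand): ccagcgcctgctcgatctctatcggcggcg
Rpl7l1 (chr9:21695703-21695732, plus strand): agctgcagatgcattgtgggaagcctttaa
Rpl14 (chr8:129163605-129163634, plus strand): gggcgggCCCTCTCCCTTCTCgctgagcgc
Rpl22 (chr5:168117946-168117975, plus strand): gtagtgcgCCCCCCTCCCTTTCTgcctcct
Rps28 (chr7:15311319-15311348, minus strand): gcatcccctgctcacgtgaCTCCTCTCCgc
Rpl19 (chr10:83519049-83519078, plus strand): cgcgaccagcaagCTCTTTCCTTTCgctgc
Rpl35 (chr3:43165907-43165936, minus strand): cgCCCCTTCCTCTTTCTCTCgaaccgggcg
Rpl35a (chr11:81235007-81235036, minus strand): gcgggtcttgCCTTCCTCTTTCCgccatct
Rpl13a (chr1:104748899-104748928, minus strand): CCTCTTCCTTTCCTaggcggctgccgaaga
Rplp0 (chr12:46718376-46718405, minus strand): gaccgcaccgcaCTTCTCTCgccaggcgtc

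The windows of Rpl6, Rpl3 and Rpl7l1 held no such tract, while those of the other genes shown did, in Rpl13a wholly before the annotated start. Among the 38 members, 26 (68.4%) held the tract, against 21.3% of 27457 promoters. Another form was placed exactly at the annotated start, as a C there followed by at least 4 pyrimidines. It was found in 11 members (28.9%), among them Rpl39, which lacks the first form, and in 2.63% of all promoters. Within the whole 300 bases of each entry, searched on both strands, TCTCGCGA stood in 8 members (21.1%, against 0.943% of all promoters) and CCGGAA, the core of ETS factor sites, in 15 (39.5%, against 15.8%). The Sp1 core GGGCGG was present in 23 members (60.5%, against 34.9%) and the YY1 core AAGATGG in 8 (21.1%, against 7.3%). CCAAT was present in 6 members (15.8%, against 37.7%) and TATAAA in 5 (13.2%, against 14.3%). None of these words contains another, and a match describes the letters of the window and shows no binding.

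Of the 45 genes, 41 passed the filter that removed the dimmest 40% of probe sets, 29 of the large and 12 of the small subunit. Rpl28, Rpl30, Rps13 and Rpl39l1 did not pass, with mean levels of 4.77, 5.33, 5.34 and 4.40 on the log2(intensity + 16) scale, on which the lowest mean kept was 5.98. In a fit without the filter none of these 4 was called in any comparison. Most members were bright: 37 of 41 had a mean level of 10 or more, against 5.59% of all probe sets kept. Mean levels ran from 6.04 for Rps4y2, a member of the S4 family, to 12.77 for Rps29, a small zinc-binding protein of the small subunit. Levels of different probe sets also depend on their probes and are not compared between genes.

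The spread between rats of a group was small for these genes. The within-group SD had a median of 0.106 over the 41 members, against 0.199 over all 18626 probe sets tested and 0.135 over the 1042 with a mean level of 10 or more. It was lowest for Rpl7a, a large-subunit protein, at 0.05, and highest for Rps4y2 at 0.246.

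The array of 500 mg/kg replicate 4 stood apart from the other 23. Against the mean of 500 mg/kg replicates 1 to 3, the forebrain neuron genes Nrgn and Camk2a differed on it by -4.81 and -4.10, and the cerebellar genes Gabra6 and Pcp2 by 5.80 and 6.06. On the other 23 arrays Nrgn and Camk2a had median levels of 11.35 and 11.71 and Gabra6 one of 5.55, under the lowest mean kept. The ribosomal protein genes differed less on that array: their median difference from the other 3 was 0.09, and its median size was 0.12, against 0.30 for all probe sets. Rplp0 differed by -0.45 and Rpl41 by -0.36 there, and Rpl24 by 0.46 and Rpl18 by 0.45. Counts are given with and without this array wherever it moves them.

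The RNA quality controls also differed between groups. The signal of the 3' Gapdh control probe set over that of the 5' one, in log2, was 0.83 ± 0.06 (SD, n = 4) in vehicle rats and 0.19 ± 0.07, 0.18 ± 0.04 and 0.34 ± 0.17 at 5, 20 and 50 mg/kg. Each of these differences had an exact two-sided permutation p of 0.0286, the smallest that 4 against 4 allows, and 0.0476 after Benjamini-Hochberg adjustment over 5 doses. At 200 and 500 mg/kg the ratio was 0.60 ± 0.21 (exact p = 0.0857) and 0.75 ± 0.14 (exact p = 0.371). The beta-actin ratio moved the same way, from 2.56 ± 0.19 in vehicle rats to 1.69, 1.60 and 1.87 at the 3 lower doses. The doses with calls below are thus among those whose ratios differed from vehicle, and the part of RNA quality in each result was not tested apart from the covariate fit given at the end.

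**Figure D1:**
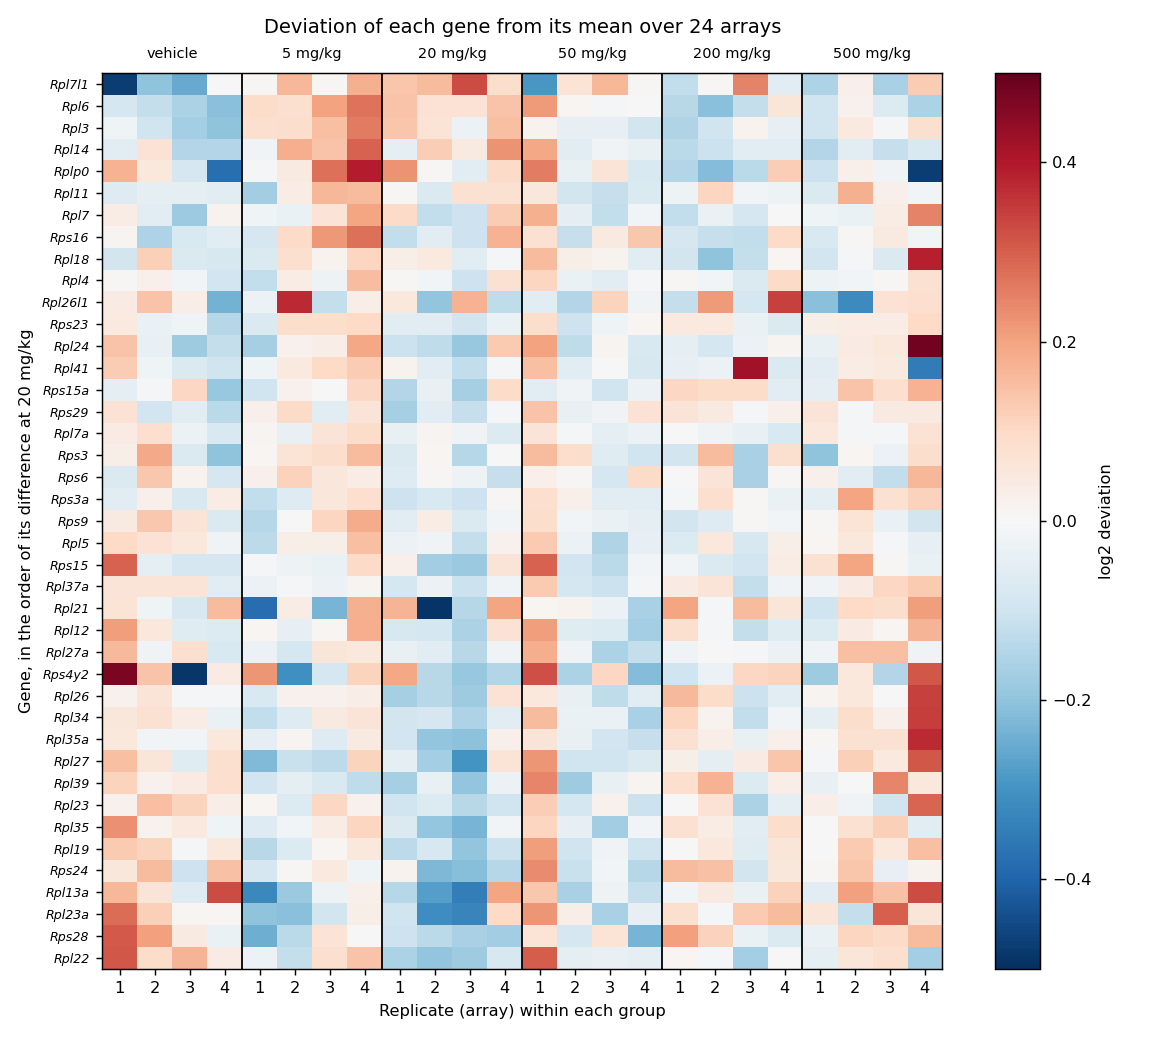
Deviation of each of the 41 genes (rows, in the order of their difference at 20 mg/kg) from its own mean over 24 arrays (columns, 4 replicates in each of 6 groups), on a log2 colour scale that ends at 0.5 either way. Most cells are pale, the 20 mg/kg columns hold more blue than the others, and 500 mg/kg replicate 4 has the widest spread between genes, with an interquartile range of 0.22.

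As a group the ribosomal protein genes hardly moved with dose. Their median deviation from the 24-array mean, taken on each array, was 0.00 ± 0.06 (SD, n = 4) in vehicle rats. It was 0.02 ± 0.07 at 5, -0.06 ± 0.06 at 20, 0.00 ± 0.09 at 50, -0.01 ± 0.03 at 200 and 0.03 ± 0.05 at 500 mg/kg. Single arrays ran from -0.14 (20 mg/kg replicate 3) to 0.13 (50 mg/kg replicate 1), and the groups overlapped. The medians of the large and small subunit genes were -0.14 and -0.13 on the lowest array and 0.15 and 0.09 on the highest. They lay a median of 0.02 apart over the 24 arrays and at most 0.08, on 20 mg/kg replicate 4 (0.07 and -0.01). The probe sets with several ribosomal protein symbols had group means of 0.01 in vehicle rats, 0.02 at 5 and -0.06 at 20 mg/kg. In whole tissue, fewer cells of a type and less RNA per cell cannot be told apart.

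**Figure D2:**
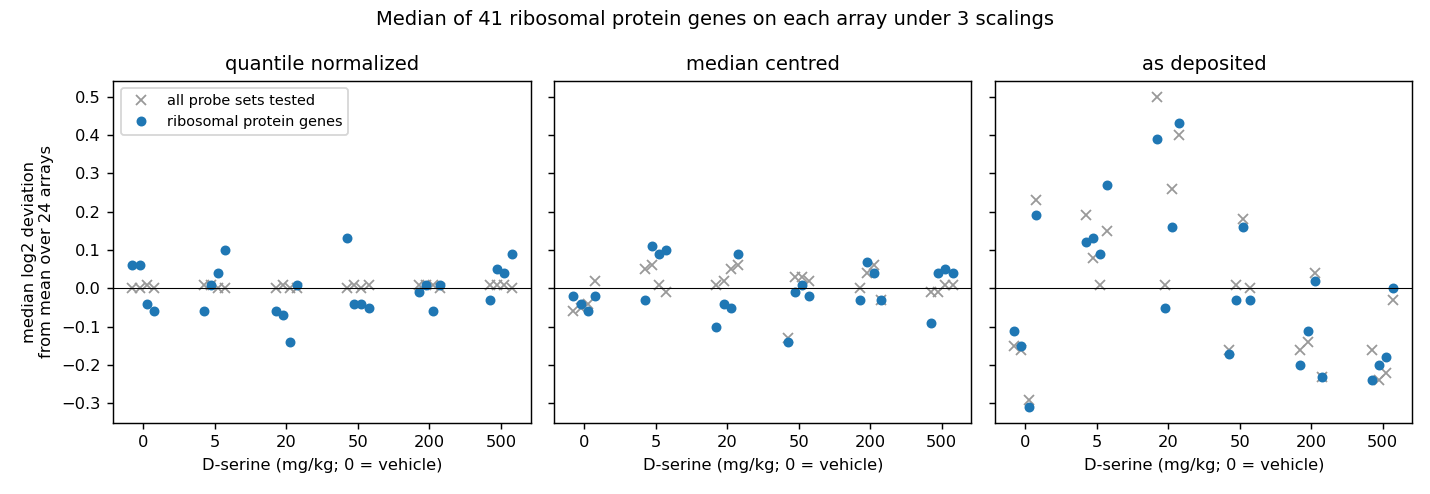
Median log2 deviation of the 41 genes on each array (blue points) and of all probe sets tested (grey crosses), by D-serine dose, under quantile normalization, median centring and the intensities as deposited. Quantile normalization holds all probe sets near 0, where the genes run from -0.14 to 0.13; as deposited both move together, with median differences from vehicle at 20 mg/kg of 0.32 for the genes and 0.37 for all probe sets.

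The first question was whether any dose changed single ribosomal protein genes against vehicle. Each comparison came from limma with Benjamini-Hochberg adjustment over all 18626 probe sets and was called at an adjusted p under 0.05. At 5 mg/kg 2 of 41 members rose (4.88%) and none fell, against 5.52% of all probe sets (3.79% higher, 1.73% lower) and 7.1% of those with a mean level of 10 or more. The pair comprised Rpl6 and Rpl3. In all 8 members (19.5%) had an unadjusted p under 0.05. That share was 18.9% for all probe sets and 23.4% for those with a mean level of 10 or more. The median difference of the members was 0.00, with 21 above and 20 below vehicle. For 40 of the 41 the 95% interval of the difference lay within 0.5 either way.

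Rpl6, a large-subunit protein, was the most clearly changed. Its levels were 11.29, 11.26, 11.22 and 11.17 in vehicle rats, 11.47, 11.46, 11.58 and 11.65 at 5 mg/kg, and 11.52, 11.45, 11.45 and 11.52 at 20 mg/kg. Every array at both doses lay above every vehicle array. The difference was 0.30 ± 0.07 (SE) at 5 mg/kg, a 1.24-fold higher level (limma, adjusted p = 0.00709). That call held whichever array was left out. The 20 mg/kg difference was 0.25 ± 0.07 (adjusted p = 0.0187), which was 0.23 without vehicle replicate 4 (adjusted p = 0.0579) and 0.24 without 20 mg/kg replicate 1 (adjusted p = 0.0518). Its levels at 50 mg/kg, 11.59, 11.39, 11.37 and 11.38, also lay above all vehicle arrays, but that difference of 0.20 did not pass (adjusted p = 0.157). The arrays at 200 mg/kg (11.24, 11.17, 11.26 and 11.44) and those at 500 mg/kg (11.28, 11.40, 11.31 and 11.22) overlapped the vehicle arrays.

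Rpl3 lies beside the peptidyl transferase centre of the large subunit. It measured 11.89, 11.81, 11.74 and 11.71 in vehicle rats and 11.99, 12.00, 12.06 and 12.17 at 5 mg/kg, with no overlap. It rose by 0.27 ± 0.06 (SE), or 1.20-fold (limma, adjusted p = 0.0105). Its levels at 20 mg/kg were 12.05, 11.98, 11.88 and 12.06, of which the lowest lay just under the highest vehicle array. That rise was 0.20 ± 0.06 (adjusted p = 0.0364), and the call was lost without vehicle replicate 2, 3 or 4 or 20 mg/kg replicate 1, 2 or 4 (adjusted p from 0.0583 to 0.108). It was also lost without the filter on dim probe sets (adjusted p = 0.0936) and without the intensity trend (adjusted p = 0.0847). The arrays at the 3 higher doses, between 11.76 and 11.99, overlapped those of vehicle.

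A second, dimmer Rpl3 probe set with a mean level of 7.43 did not follow the first. Its difference was -0.48 at 5 mg/kg (adjusted p = 0.403), and -0.13 at 20 mg/kg (adjusted p = 0.859), with an SE of 0.29. When both probe sets were averaged the Rpl3 difference at 5 mg/kg turned to -0.11. The rise therefore holds for 1 of 2 probe sets.

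At 20 mg/kg 3 members rose and 1 fell (4 of 41, 9.76%), against 8.48% of all probe sets (5.25% higher, 3.23% lower) and 10.6% of those with a mean level of 10 or more. The risers were Rpl6, Rpl3 and the paralogue Rpl7l1, and Rpl22 fell. In all 11 members (26.8%) had an unadjusted p under 0.05. That share was 21.8% for all probe sets and 27.2% for those with a mean level of 10 or more. The members lay lower as a group, with 10 above and 31 below vehicle, 11 of 12 small-subunit and 20 of 29 large-subunit genes being below. Their median difference was -0.07, against -0.00 for all probe sets. Relative to all probe sets the lean was -0.07 here and -0.05 both under median centring and as deposited. The members' own median was 0.01 and 0.32 under those scalings, which set all probe sets at 0.06 and 0.37. The split of calls moved too, from 3 higher and 1 lower to 4 and 0 under median centring and 18 and 0 as deposited. Without 500 mg/kg replicate 4 the count was 7, the 3 risers and 4 that fell (12.7% of all probe sets were called), with Rps28, Rpl19 and Rpl23 joining Rpl22.

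Rpl7l1, a nucleolar relative of Rpl7 that works in ribosome assembly, had the greatest difference from vehicle at 20 mg/kg. Vehicle levels were 7.59, 7.86, 7.81 and 8.06, and those at 20 mg/kg were 8.20, 8.22, 8.39 and 8.15. No 20 mg/kg array overlapped a vehicle array, though vehicle replicate 1 was the lowest of all 24. The rise was 0.41 ± 0.11 (SE), or 1.33-fold (limma, adjusted p = 0.0231), and 0.33 without vehicle replicate 1 (adjusted p = 0.0962). The call was also lost without 20 mg/kg replicate 2 (0.41, adjusted p = 0.0515) or replicate 3 (0.36, adjusted p = 0.0894). At 5 mg/kg, with levels of 8.07, 8.23, 8.07 and 8.24, it differed by 0.32 ± 0.11 (adjusted p = 0.0929). Its second probe set, with a mean level of 7.96, differed by 0.06 at 5 mg/kg and 0.01 at 20 mg/kg (adjusted p = 0.764 and 0.968), so the call rests on 1 of 2 probe sets.

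Rpl22, an RNA-binding protein of the large subunit that is dispensable for translation in many cells, measured 10.81, 10.59, 10.67 and 10.54 in vehicle rats. At 20 mg/kg it measured 10.34, 10.30, 10.32 and 10.42, all below vehicle. It fell by 0.31 on the log2 scale (SE 0.0851), to 0.808 of the vehicle level (limma, adjusted p = 0.0255). The difference stayed between -0.35 and -0.26 whichever array was left out, but the call was lost for 5 of the 24 arrays. It was -0.26 without vehicle replicate 1 (adjusted p = 0.0991), -0.30 without vehicle replicate 3 (adjusted p = 0.055), and between -0.31 and -0.29 without 20 mg/kg replicate 1, 2 or 3 (adjusted p = 0.056, 0.0721 and 0.0665). Under median centring it was -0.16 (adjusted p = 0.172) and as deposited 0.15, scales on which all probe sets stood at 0.06 and 0.37. Relative to them it was -0.22, a value these 2 scalings share by construction. Its arrays at 200 mg/kg, 10.51, 10.49, 10.33 and 10.50, also lay below all vehicle arrays, with a difference of -0.19 (adjusted p = 0.893).

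**Figure D3:**
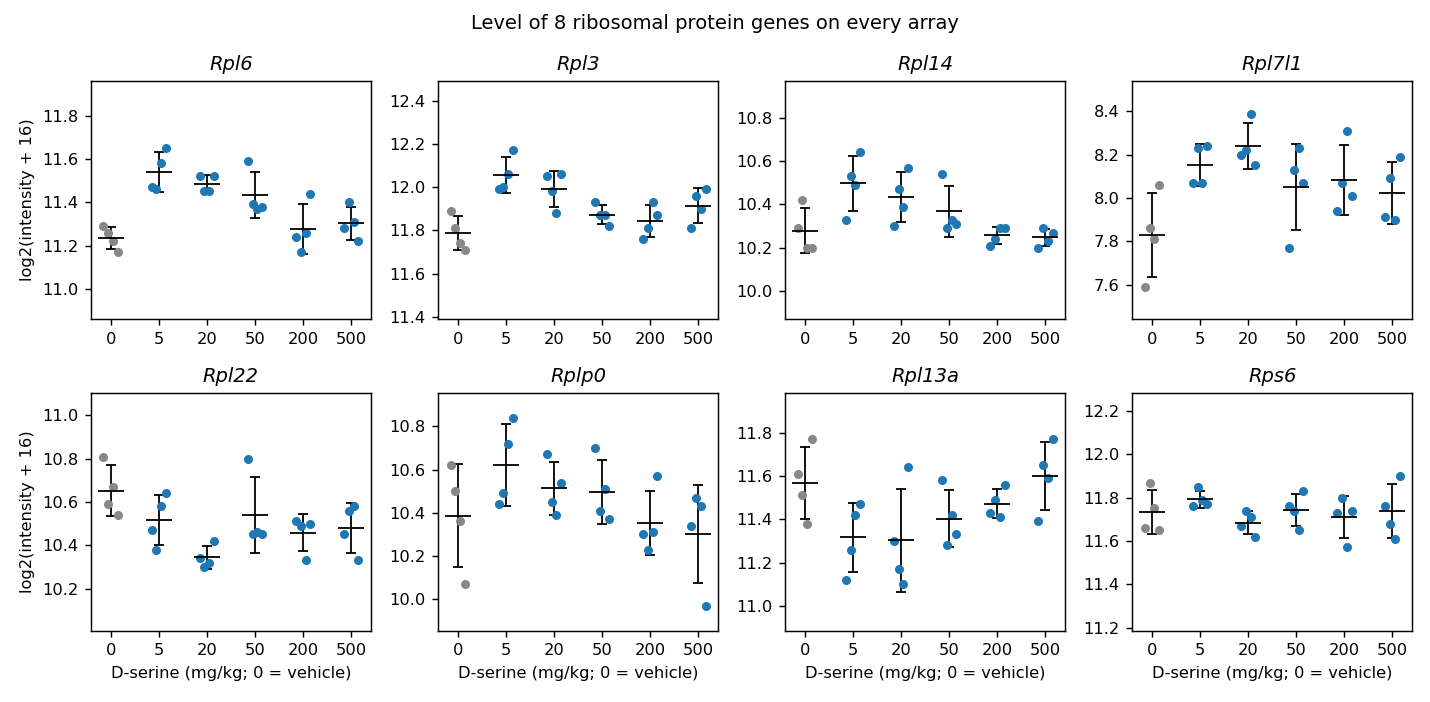
Level of 8 ribosomal protein genes on every array, as log2(intensity + 16), by D-serine dose in mg/kg. Points are rats (vehicle grey), and bars give the group mean and SD (n = 4). Rpl6 and Rpl7l1 lie above vehicle at 5 and 20 mg/kg without overlap, Rpl22 lies below it at 20 mg/kg, and Rps6 overlaps vehicle at every dose.

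The members just short of the threshold at 20 mg/kg all lay lower. Rps28, a protein at the messenger RNA exit of the small subunit, measured 11.20, 11.10, 10.94 and 10.86 in vehicle rats and 10.79, 10.76, 10.73 and 10.72 at 20 mg/kg. Its difference was -0.27 ± 0.09 (SE; limma, adjusted p = 0.0515). Rpl19, which forms a bridge between the subunits, measured 11.85, 11.83, 11.71 and 11.77 in vehicle rats and 11.59, 11.64, 11.52 and 11.61 at 20 mg/kg, a difference of -0.20 ± 0.07 (adjusted p = 0.0624). Neither gene's arrays overlapped between the groups. Rpl35, at the exit of the peptide tunnel, differed by -0.20 (adjusted p = 0.0896), and its neighbour Rpl23a by -0.27 (adjusted p = 0.11).

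Some members had arrays that did not overlap those of vehicle. At 5 mg/kg 3 members lay above vehicle on every array (7.32%; Rpl3, Rpl6, Rpl7l1) and 1 below (2.44%; Rpl39), against 7.53% and 6.08% of all probe sets. In the 20 mg/kg group 2 lay above (4.88%; Rpl6, Rpl7l1) and 6 below (14.6%; Rpl19, Rpl22, Rpl23, Rpl34, Rpl39, Rps28), against 8.72% and 7.18%. At 50 mg/kg Rpl6 alone lay above (4.56% of all probe sets above, 3.48% below). At 200 mg/kg Rpl11 lay above and Rpl22 below (1.73% and 1.78%), and at 500 mg/kg no member did (1.39% and 1.33%).

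**Figure D4:**
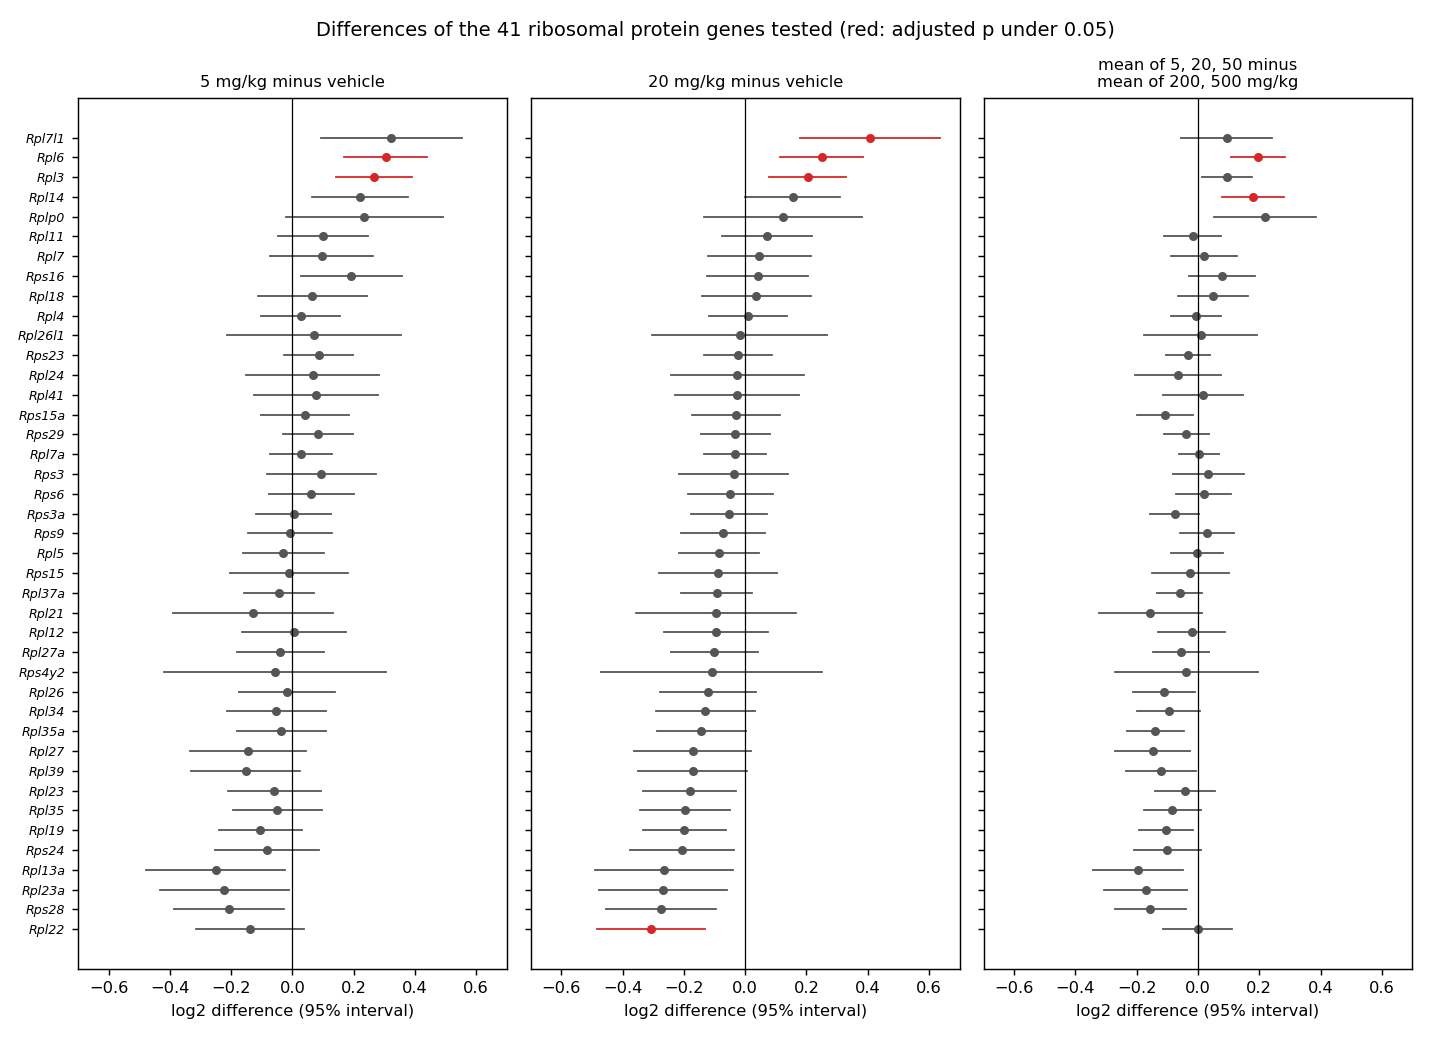
Differences of the 41 genes in log2 units with their 95% intervals, for 5 and 20 mg/kg against vehicle and for the mean of the 3 lower against the mean of the 2 higher doses, with genes in the order of their difference at 20 mg/kg. Red marks an adjusted p under 0.05: Rpl6 and Rpl3 at 5 mg/kg, 3 risers and Rpl22 at 20 mg/kg, and Rpl6 and Rpl14 in the last panel.

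At the 3 higher doses no member was called by limma. At 50 mg/kg 0.864% of all probe sets were called (0.693% higher, 0.172% lower), 0.768% of those with a mean level of 10 or more, and 1 member (Rpl6) had an unadjusted p under 0.05. At 200 mg/kg 0.0% were called and 2 members (Rpl22 and Rpl7l1) had such a p. At 500 mg/kg 0.00537% were called and 1 member (Rpl3) had one. Over all probe sets such a p was found for 12.9% at 50, 5.3% at 200 and 6.9% at 500 mg/kg. The other members of smallest p at 50 mg/kg were Rps28 at -0.17, Rpl7l1 at 0.22 and Rps29 at 0.10 (adjusted p = 0.405, 0.408 and 0.492). All 41 intervals lay within 0.5 either way at each of these doses, and the median differences were -0.02, -0.02 and 0.03. At 500 mg/kg Rpl3 differed by 0.13, Rpl22 by -0.17, Rps15a by 0.12 and Rpl7l1 by 0.19, with adjusted p between 0.716 and 0.747.

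Genes of other known roles showed no call against vehicle with the processing used here. Rplp0, the base of the stalk that recruits elongation factors and a common PCR reference, varied widely within groups, from 10.07 to 10.62 in vehicle rats, 10.44 to 10.84 at 5 mg/kg and 9.97 to 10.47 at 500 mg/kg. It differed by 0.24 ± 0.12 (SE) at 5 mg/kg (limma, adjusted p = 0.322). That difference was called under median centring (0.37, adjusted p = 0.0388) and as deposited (0.51, adjusted p = 0.0325). All probe sets stood at 0.05 and 0.19 on those scales. Rpl13a, another PCR reference, lay the other way, with levels of 11.61, 11.51, 11.38 and 11.77 in vehicle rats and 11.12, 11.26, 11.42 and 11.47 at 5 mg/kg. These 2 groups overlapped, and the difference was -0.25 ± 0.11 (adjusted p = 0.206). Rpl5 and Rpl11, which join 5S ribosomal RNA in the particle that restrains Mdm2, differed by -0.03 and 0.10 at 5 mg/kg and by -0.09 and 0.07 at 20 mg/kg.

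Rps6, the substrate of the S6 kinases, measured 11.66, 11.87, 11.75 and 11.65 in vehicle rats, 11.76, 11.85, 11.79 and 11.77 at 5 mg/kg and 11.67, 11.74, 11.71 and 11.62 at 20 mg/kg. Its differences were 0.06, with a 95% interval from -0.08 to 0.20, and -0.05, from -0.19 to 0.09. Rpl41, the shortest ribosomal protein, differed by 0.08 at 5 mg/kg and -0.03 at 20 mg/kg. Rps3, at the messenger RNA entry, differed by 0.09 and -0.04, and Rps16 by 0.19 and 0.04 (adjusted p = 0.178 and 0.835). The paralogue Rpl26l1 differed by 0.07 and -0.02 and Rps4y2 by -0.06 and -0.11, both with wide intervals.

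Over the 6 groups together the F test of limma called 2 members (4.88%), Rpl6 (adjusted p = 0.0135) and Rpl3 (adjusted p = 0.0434). It called 5.93% of all probe sets and 7.2% of those with a mean level of 10 or more. An unadjusted p under 0.05 was seen for 8 members (19.5%), against 18.6% of all probe sets and 21.5% of those with such a level. Rpl6 kept this call whichever array was left out (highest adjusted p = 0.0367), and Rpl3 lost it for 17 of the 24 arrays (highest adjusted p = 0.102). No member changed steadily over the rank of the dose: 0 were called against 0.0% of all probe sets. In the same test 0 had an unadjusted p under 0.05, against 5.73% of all probe sets. The smallest was that of Rps15a, with a slope of 0.02 per dose step (adjusted p = 0.832).

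The lower doses were then set against the higher ones, without vehicle. This comparison was chosen because earlier results of these data showed that RNA quality ratios differ between these sets of groups. The mean Gapdh ratio was 0.19, 0.18 and 0.34 at the lower doses and 0.60 and 0.75 at the higher ones. Dose and RNA quality therefore cannot be told apart in it. The mean of 5, 20 and 50 mg/kg was higher than that of 200 and 500 mg/kg for 2 members, Rpl6 and Rpl14, and lower for none, against 10.2% of all probe sets called (6.05% higher, 4.2% lower) and 12.8% of those with a mean level of 10 or more. In all 14 members lay higher and 27 lower, with a median of -0.03. A further 11 members had an unadjusted p under 0.05 and did not pass, 2 of them higher and 9 lower. With the 2 called this made 13 members (31.7%). That share was 25.4% for all probe sets and 31.0% for those with a mean level of 10 or more. The split of 2 higher and 0 lower became 2 and 9 with array weights, and 28 and 0 as deposited, where all probe sets stood 0.28 higher. The difference for Rpl6 was 0.20 ± 0.04 (SE; limma, adjusted p = 0.00491). Rpl14, a large-subunit protein, measured 10.33, 10.53, 10.49 and 10.64 at 5 mg/kg, 10.30, 10.47, 10.39 and 10.57 at 20 mg/kg, then 10.54, 10.29, 10.33 and 10.31 at 50 mg/kg. At 200 mg/kg it measured 10.21, 10.24, 10.29 and 10.29 and at 500 mg/kg 10.20, 10.29, 10.23 and 10.27. To 2 decimals, no array of the 2 higher doses lay above 10.29, the lowest level at the 3 lower doses. The share of all probe sets that separate in this way was not counted. Vehicle arrays of Rpl14, at 10.29, 10.42, 10.20 and 10.20, reached into the range of the lower doses.

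The Rpl14 difference was 0.18 ± 0.05 (SE; limma, adjusted p = 0.0209). A second Rpl14 probe set, with a mean level of 4.57 and below the filter, differed by -0.18 ± 0.15 in a fit without the filter (adjusted p = 0.57). Without 200 mg/kg replicate 1 the Rpl14 call was lost (adjusted p = 0.0518) and 1 member remained. The count was 5 without 20 mg/kg replicate 4 or without 50 mg/kg replicate 1, and 4 without 500 mg/kg replicate 1. The nearest members on the lower side were Rpl35a at -0.14 (adjusted p = 0.0521), Rps28 at -0.16 (adjusted p = 0.0791) and Rpl13a at -0.20 (adjusted p = 0.0808). Between 500 and 200 mg/kg no member was called (0.0% of all probe sets). None had an unadjusted p under 0.05 (5.2% of all probe sets).

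Members with and without the tract anywhere in their window of 30 bases can be set side by side. This division was made after their values were seen and is given without a test. In several with it, such as Rpl13a, Rpl5, Rpl7a and Rps6, the tract ended before the annotated start. Rpl39, with a C at the start followed by at least 4 pyrimidines, was counted as without it. Against vehicle, 20 mg/kg gave 3 of the 24 tested members with a tract above and 21 below, with a median of -0.10. Of the 11 without one 6 lay above and 5 below, with a median of 0.04. At 5 mg/kg the counts were 10 above and 14 below with a tract and 9 above and 2 below without one. At 50 mg/kg they were 7 and 17 with a tract and 7 and 4 without one, and at 200 mg/kg 7 and 17 with one and 9 and 2 without one. At 500 mg/kg they were 14 above and 10 below, and 8 above and 3 below.

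Translation genes around the ribosome were read from gene lists by role. Of 40 listed initiation factors 35 were measured, and 3 rose and 1 fell both at 5 and at 20 mg/kg, 11.4% against the 5.52% and 8.48% of all probe sets. The risers were Eif4a1, the helicase that unwinds messages (0.36 ± 0.09 and 0.37 ± 0.09, SE), its helper Eif4h (0.24 and 0.23), and Eif6, which keeps free large subunits apart from small ones (0.31 and 0.31). Eif4g3, a scaffold of the cap complex, fell by 0.30 and 0.27. The median of the 35 was 0.05 at 5 mg/kg and 0.03 at 20 mg/kg, against -0.00 for all probe sets. At the lower against the higher doses 5 of the 35 were higher and 3 lower (22.9%, against 10.2% of all probe sets).

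All 12 elongation and termination factors were measured, of which only Eef1a2, the neuronal form of the factor that delivers aminoacyl-tRNA, rose at 5 mg/kg (0.63 ± 0.09, SE; limma, adjusted p = 0.000394) and at 20 mg/kg (0.55 ± 0.09, adjusted p = 0.000794), 8.33% of the list. Eef2k, the kinase that inhibits elongation factor 2, fell by 0.62 ± 0.15 at 50 mg/kg (adjusted p = 0.0485). Of 21 other TOP messages 16 were measured and none passed at 5 or 20 mg/kg. The ribosomal proteins that the symbol rule does not reach, Rpsa and Rack1 among 9 listed, differed by 0.13 and 0.17 at 5 mg/kg (adjusted p = 0.479 and 0.152).

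Of 50 listed ribosome assembly genes 49 were measured. None passed at 5 mg/kg (5.52% of all probe sets), and at 20 mg/kg only Taf1d, a subunit of the RNA polymerase I selectivity factor, fell by 0.49 (2.04% of the list, against 8.48%). At the lower against the higher doses 4 were lower and none higher (8.16% of the list). Of all probe sets 10.2% were called there, 6.05% higher and 4.2% lower. Among the 4 was Dkc1, the pseudouridine synthase of small nucleolar particles, at -0.42 ± 0.07 (SE; limma, adjusted p = 0.000984). Nop56, a core protein of those particles, and Ncl, nucleolin, were both at -0.25 (adjusted p = 0.00959 and 0.00968). Of 22 listed S6 kinase and mTOR genes 18 were measured, none passed at 5 mg/kg, and Eif4ebp2, which restrains cap-dependent initiation in brain, fell by 0.33 at 20 mg/kg (adjusted p = 0.00675), 5.56% of the list against 8.48%.

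Genes outside the set whose pattern over the 24 arrays was most like the members' mean were B2m (Pearson r = 0.80), Iqub (0.75), Pnrc2 (0.75), Rbm39 (0.74) and Srsf5 (0.73). These are descriptions over 24 arrays that share normalization and groups.

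Markers of brain cell types were read beside these results. The 9 measured of 10 oligodendrocyte markers summed to intensities of 17177 to 27363 in vehicle rats, 14747 to 18203 at 5 mg/kg and 12236 to 18432 at 20 mg/kg. All 9 lay below vehicle at both doses, with medians of -0.44 and -0.60, and none passed. The 7 measured of 8 astrocyte markers summed to 15130 to 16715 in vehicle rats and 13684 to 16851 at 20 mg/kg. The 7 measured of 9 forebrain neuron markers summed to 8050 to 11069 in vehicle rats and 7304 to 9984 at 20 mg/kg. Among them Tbr1, a transcription factor of cortical neurons, rose (1.11 at 5 and 1.16 at 20 mg/kg, limma, adjusted p = 0.00931 and 0.00459). Tbr1 was dim, with a median level of 5.99 when the array with cerebellar gene levels was left out. The lowest mean kept was 5.98, so its rise says little about the forebrain neuron markers as a set. The 3 measured of 8 choroid plexus markers summed to between 266 and 9009 in vehicle rats and at most 324 and 284 at 5 and 20 mg/kg. Of the markers of microglia (8 of 9 measured), endothelium (8 of 8), blood (2 of 5), proliferating cells (6 of 11) and cerebellum (9 of 12), none passed at 5 or 20 mg/kg. The part of cell makeup in the members' differences was not tested.

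With the Gapdh 3' to 5' ratio added to the model as a covariate, 0 members and 0 of all probe sets were called in every comparison. In that fit Rpl6 differed by 0.20 and Rpl3 by 0.24 at 5 mg/kg (limma, adjusted p = 0.764 and 0.75). Rpl7l1 differed by 0.23 and Rpl22 by -0.21 at 20 mg/kg (adjusted p = 0.839 and 0.815). Without 500 mg/kg replicate 4 the covariate fit gave 0.06 for Rpl7l1 and -0.07 for Rpl22 at 20 mg/kg, and 0.24 for Rpl6 and 0.18 for Rpl3 at 5 mg/kg (adjusted p from 0.957 to 0.994). Since the ratio differs between the groups, the dose and the ratio can hardly be told apart in such a fit.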

How the data were processed

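Total RNA from 24 forebrain pieces was measured on Affymetrix arrays. The deposited values are intensity, 1 linear signal per probe set, made with GCOS, the array maker's software, per the submitters' processing notes. Which GCOS version, settings and scaling target were used is not given in the sources used here. Array medians of log2(intensity + 16) spanned 0.735, above the 0.5 set as the limit for values already on 1 scale, so the intensities were quantile normalized and taken as log2(intensity + 16). A fold is on that scale and understates changes of dim probe sets. The 57 control probe sets and the dimmest 40% were left out, leaving 18626. Symbols came from the platform annotation, and the member rule was applied to these. Names updated through Entrez to RefSeq, which matched 43 of the 45 members, served the gene lists and an alternative choice of members. One limma model (3.58.1, R 4.3.3; 6 group means, eBayes with an intensity trend) held all 24 arrays, and all comparisons with vehicle share its 4 arrays. It was tested on simulated data.

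The members, lists and comparisons were chosen with earlier results of these data known. Named are, in each comparison, up to 8 members rising and 8 falling past the threshold (otherwise the 4 of smallest p), the 4 of smallest F test p, Rplp0, Rps6, Rpl3, Rpl22, Rpl41, the brightest and dimmest member, up to 3 genes per pathway list and the 5 genes most like the members' mean. Other genes were named after their values were seen: those near a threshold or beyond vehicle on every array, those extreme on 500 mg/kg replicate 4, and Rpl5, Rpl11, Rpl13a, Rps3, Rps16 and Rpl26l1 for their roles. Animal numbers in the labels follow the groups, so any handling order that followed them cannot be told apart from dose.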

Additional observations from a re-analysis of the deposited data

Results flagged for a closer look

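In 9 of 102 groups of 4 arrays examined, 1 array lay apart from the other 3 by more than Dixon's 95% critical value; chance gives about 5% of groups. In 50 mg/kg replicate 1, 3 genes were high, Rpl6 at 11.59 (the other 3 from 11.37 to 11.39), Rpl14 at 10.54 (10.29 to 10.33) and Rpl22 at 10.80 (10.45 to 10.46), and so was the median over the members, at 0.13 (-0.05 to -0.04). In 200 mg/kg replicate 3, Rpl41 was high at 11.73 (11.24 to 11.28) and Rpl22 low at 10.33 (10.49 to 10.51). Rps15a was low in 200 mg/kg replicate 4, at 11.87 (12.02 to 12.03). Rpl18 was high in vehicle replicate 2, at 10.77 (10.56 to 10.58). Rpl24 was high in 500 mg/kg replicate 4, at 11.11 (10.59 to 10.68), the array with cerebellar gene levels.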

How the results depend on the processing

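Of the counts of members called, 317 of 367 alternative values stayed within 1.5 times the count reported. Among them was every value at 50, 200 and 500 mg/kg, over dose rank and between 500 and 200 mg/kg, where the count reported was 0. The 50 that moved all fell in the comparisons with calls, so the pooled share says little about those. At 5 mg/kg the count of 2 became 4 under median centring and 4 as deposited, with Rpl14 and Rplp0 joining both times. It became 1 with the probe sets of a gene averaged and 0 with the Gapdh covariate, with or without 500 mg/kg replicate 4. Leaving out 1 array gave 2 to 3. At 20 mg/kg the count of 4 became 18 as deposited (37.1% of all probe sets called), 12 with array weights (3 higher, 9 lower), 2 with probe sets averaged and 0 with the covariate, in both forms. Leaving out 1 array gave 1 to 7: 2 without vehicle replicate 1, vehicle replicate 3 or 20 mg/kg replicate 3, 1 without 20 mg/kg replicate 1 or 2, and 7 without 500 mg/kg replicate 4. Over the 6 groups the count of 2 became 1 without the filter, without the intensity trend, with 1 probe set per gene or with probe sets averaged, 16 as deposited, 4 with array weights and 0 with the covariate, in both forms (1 to 2 when leaving out 1 array). For the lower against the higher doses the count of 2 became 28 as deposited, 11 with array weights (2 higher, 9 lower) and 0 with the covariate, in both forms (1 to 5 when leaving out 1 array). Counting the probe sets of several ribosomal protein symbols as well, an alternative chosen after seeing the data, gave 7 of 70. The comparison behind that count is not named here, and no share of all probe sets stands beside it. No conclusion about these genes is drawn from it. Directions turned for Rpl3 at 5 mg/kg with probe sets averaged (-0.11) and, as deposited, for Rpl22 (0.15), Rpl41 (0.40) and Rps6 (0.34) at 20 mg/kg and for Rpl22 between lower and higher doses (0.29). On the deposited scale the median of all probe sets itself stood 0.37 above vehicle at 20 mg/kg, and 0.28 apart between lower and higher doses. The cause of the other changes was not tested. No paired analysis was possible because each array is a separate animal and the numbers only name arrays.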

Other observations

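The mitochondrial ribosome, which translates the messages of the mitochondrial genome, was read for comparison through the 73 measured genes named Mrpl or Mrps, a list added after the data were seen. At 5 mg/kg 6 rose and 2 fell (11.0%, against 5.52% of all probe sets), with a median of 0.08, and at 20 mg/kg 4 rose and 3 fell (9.59%, against 8.48%), with a median of 0.06. Mrpl2 rose by 0.62 ± 0.16 (SE; limma, adjusted p = 0.0209) and 0.58 ± 0.16 (adjusted p = 0.0224), and Mrpl55 by 0.42 and 0.46. Mrpl51 fell by 0.36 and 0.38, and Mrpl45 fell by 0.41 and 0.30. At the lower against the higher doses 10 were higher and 2 lower (16.4%, against 10.2%).

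The 5S ribosomal RNA control probe set had a mean level of 7.01 ± 0.08 (SD, n = 4) in vehicle rats. The differences were -0.05, -0.08, -0.06, 0.05 and 0.11 at 5, 20, 50, 200 and 500 mg/kg, with exact two-sided permutation p of 0.2 or more (0.571 or more after adjustment over the 5 doses).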
